A study of Mus musculus with 4 samples.

Results

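The genes described here are 10 members of the bone morphogenetic protein (BMP) pathway, out of 55602 genes in the table of bulk counts. They were listed by symbol and not by a measured value, but with earlier results of these data known. They are the Id factors *Id1*, *Id2*, *Id3* and *Id4* and the ligands *Bmp4* and *Bmp7*. The others are the secreted or membrane inhibitors *Nog* and *Bambi* and the inhibitory Smads *Smad6* and *Smad7*. All 10 had enough counts to be tested. RNA was measured in JB1 cells, a male hybrid embryonic stem cell (ESC) line whose maternal genome is JF1 and whose paternal genome is C57BL6/J (B6), and in *Zfp57*-/- cells derived from it, called mutant cells here. *Zfp57* encodes a zinc finger protein that protects methylation imprints. Both genotypes were differentiated towards neural precursor cells (NPCs) and harvested at day 12, and both received 1 µM cyclopamine, a hedgehog inhibitor, from day 2 to day 10. There were 2 wild-type and 2 mutant libraries, described in the labels as biological duplicates, so that each genotype is represented by cultures of 1 cell line.

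BMP ligands are secreted dimers that bind type I and type II receptor kinases. The receptors phosphorylate SMAD1, SMAD5 and SMAD9, which enter the nucleus with SMAD4. Id genes are among the best known direct targets, and their products bind E proteins and keep these partners of proneural factors from binding DNA. In the early embryo BMP signals hold back neural induction, and in mouse ESC culture they support self-renewal through Id genes, while later they pattern the dorsal neural tube and its midline.

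The libraries held between 7663520 and 10337082 bulk counts, and between 36.1% and 37.0% as many counts assigned to an allele. The count of *Zfp57*, part of which lies outside the deletion, ranged from 249 to 392 in wild-type and from 144 to 158 in mutant libraries. The labelled cell type was checked with marker lists. Of 8 neural progenitor markers, 5 were lower in mutant cells (*Nes*, *Sox1*, *Pax6*, *Fabp7* and *Hes5*). The 8 markers summed to 1483 and 1744 CPM (counts scaled to the library total) in wild-type and 1104 and 1121 CPM in mutant libraries. All 8 pluripotency markers were higher in mutant cells, at 4.45 and 7.92 CPM summed in wild-type against 1270.4 and 1114 CPM. *Nanog*, a defining marker of pluripotent cells, was at 0 counts in both wild-type libraries. Lists of other cell types also differed between libraries. Neuronal markers (6 of 8 lower) summed to 1554 and 1991 CPM in wild-type and 229 and 184 CPM in mutant libraries, and dorsal telencephalic midline markers (5 of 7 lower) to 226 and 162 CPM against 32.0 and 40.0 CPM. Primitive and visceral endoderm markers (1 higher and 1 lower of 10) summed to 3015 and 4249 CPM in wild-type and 4965 and 6969 CPM in mutant libraries, of which *Lama1*, not past the threshold (edgeR adjusted p = 0.0516), made between 84.0% and 86.1%. Mesoderm and endothelium markers (3 higher and 1 lower of 7 tested) summed to 107 and 145 against 218 and 257 CPM, and neural crest markers (2 higher and 1 lower of 6) to 90.2 and 99.2 against 117 and 124 CPM. In such bulk samples, fewer cells of a type and less RNA per cell cannot be told apart, and the part of these cell types in the results was not tested.

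Of the 10 members, 6 differed between the genotypes. The 4 Id genes were lower and *Bmp4* and *Smad7* were higher in mutant cells, whereas *Bmp7*, *Nog*, *Bambi* and *Smad6* did not pass the threshold. The test was edgeR's quasi-likelihood test over 19995 genes, with a Benjamini-Hochberg adjusted p of 0.05 as the threshold, and a positive log2 fold change means more RNA in the mutant. Of all genes tested, 27.6% passed in either direction, 13% as higher and 14.6% as lower. The median log2 fold change of the members was -0.55 and that of all genes tested was -0.01. Normalized counts of the genotypes did not overlap for 7 members, a pattern that 66.3% of all genes tested also showed. The plots of the members by library and of their changes show these values.

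**Figure D1:**
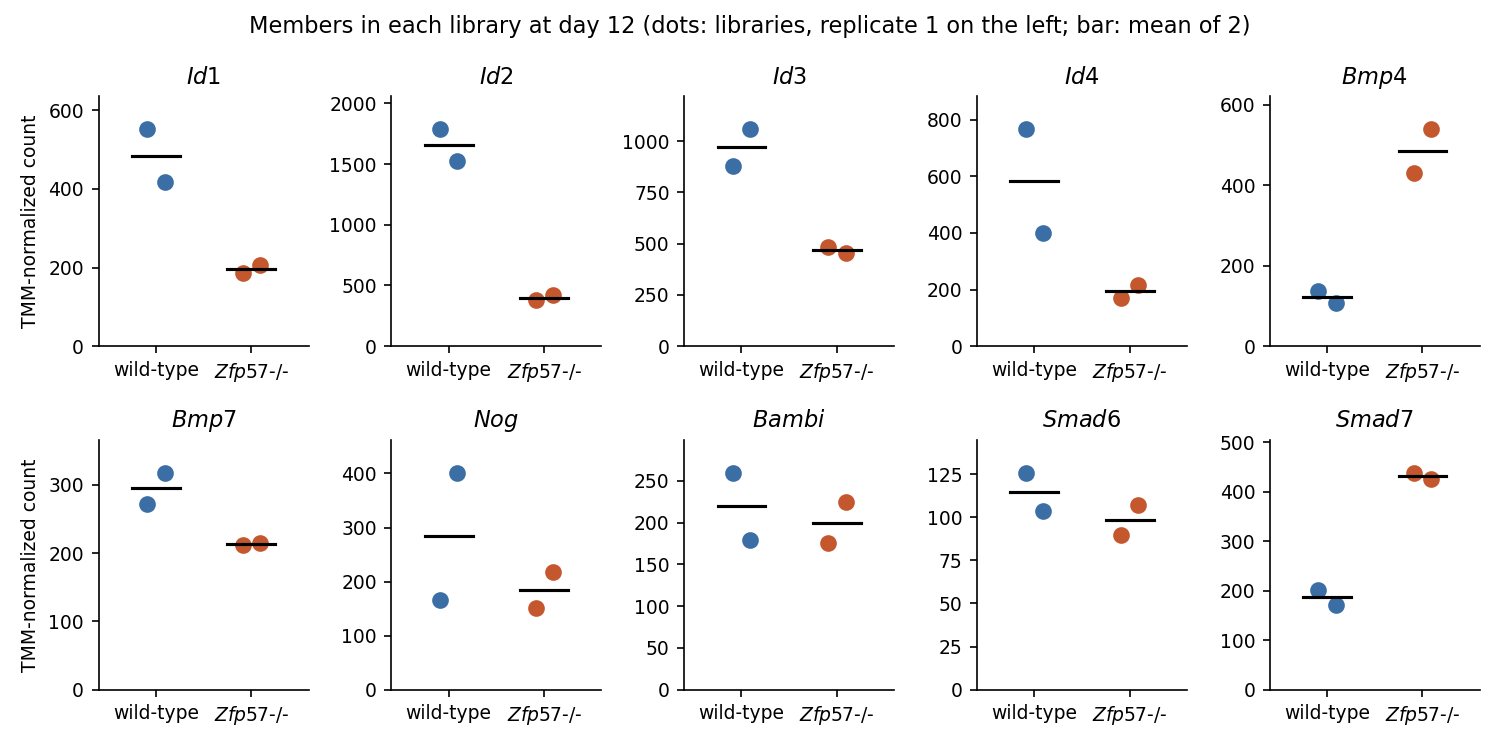
TMM-normalized counts (y axis, from 0, on a scale of its own in each panel) of the 10 members in the 2 wild-type (blue) and the 2 *Zfp57*-/- (orange) libraries, with replicate 1 on the left and the bar at the mean. The mutant libraries lie below both wild-type libraries for *Id1* to *Id4* and *Bmp7* and above them for *Bmp4* and *Smad7*, while the ranges overlap for *Nog*, *Bambi* and *Smad6*.

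**Figure D2:**
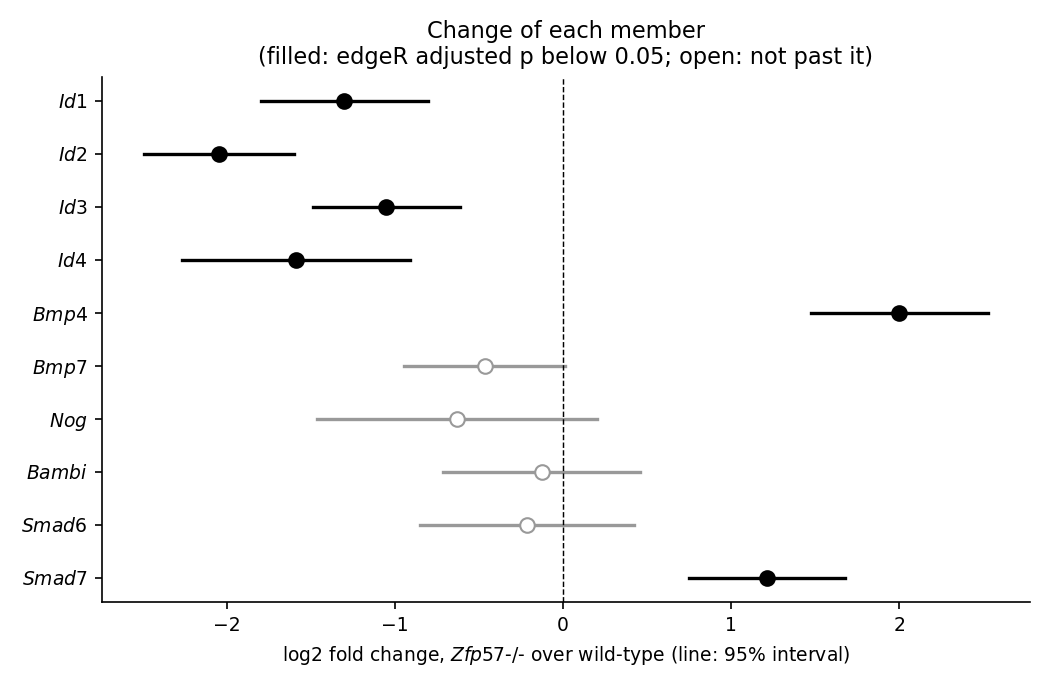
Log2 fold change of each member in *Zfp57*-/- over wild-type cells (x axis) with its 95% interval. Filled points passed the threshold (*Id1* to *Id4* to the left of 0, *Bmp4* and *Smad7* to the right), and the intervals of the open points include 0.

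*Id2* showed the most negative change among the members. It was at 1789 and 1523 normalized counts (counts scaled by the TMM library factors) in wild-type and at 379.9 and 421 in mutant replicates. The log2 fold change was -2.05 (SE, standard error, 0.20; edgeR adjusted p = 7.47e-05), or 4.13-fold less RNA in the mutant cells. Replicates of one genotype differed by at most 1.17-fold. *Id2* (ENSMUSG00000020644.9) lies on chromosome 12 from 25093799 to 25097140 in GRCm38.

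*Id4*, an Id factor of neural progenitors, was at 767 and 401 normalized counts in wild-type libraries and at 172 and 215 in mutant replicates. The log2 fold change was -1.59 (standard error 0.30, edgeR adjusted p = 0.00393). The wild-type replicates were 1.91-fold apart, the widest spread among the Id genes, yet both lay above the mutant libraries. *Id4* (ENSMUSG00000021379.2) lies on chromosome 13 from 48261228 to 48266026. Its exons are overlapped on the opposite strand by *A330033J07Rik* and *Gm49291*, which were counted apart because the counting used the strand.

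*Id1*, a direct BMP target, was at 552 and 418 normalized counts in wild-type libraries and at 186 and 207 in mutant replicates (log2 fold change -1.30, standard error 0.22, edgeR adjusted p = 0.00214). *Id3*, its close relative, was at 880.0 and 1059 normalized counts in wild-type libraries and at 483 and 452 in mutant replicates. At -1.05 on the log2 scale (standard error 0.20, edgeR adjusted p = 0.00342) it had the smallest change of the Id genes. For both genes the genotypes did not overlap. The call of *Id3* was lost when *Zfp57*-/- replicate 2 was left out (log2 fold change -0.997, edgeR adjusted p = 0.0758). *Id1* (ENSMUSG00000042745.9) lies on chromosome 2 from 152736251 to 152737410 and *Id3* (ENSMUSG00000007872.3) on chromosome 4 from 136143497 to 136145755.

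Counts divided by exon length and library size (FPKM) allow levels to be compared between the genes. The 4 Id genes summed to 202 and 178 FPKM in the wild-type and to 67.0 and 70.1 FPKM in the mutant libraries, and the wild-type mean was 2.78 times the mutant mean. The make-up of this sum also differed. *Id2* made 37.9% ± 1.01 (SD, n = 2) of the summed Id level in wild-type and 25.5% ± 1.06 (SD, n = 2) in mutant cells. *Id3* made 30.5% ± 6.60 (SD, n = 2) and 40.5% ± 3.17 (SD, n = 2), with the higher value in mutant cells. The shares of *Id1* and *Id4* lay within a few percentage points of each other, at 23.2% and 26.2% for *Id1* and at 8.34% and 7.77% for *Id4*. The order of the level was *Id2*, *Id3*, *Id1*, *Id4* in wild-type cells. In mutant cells it was *Id3*, *Id1*, *Id2*, *Id4*, where the ranges of *Id1* (17.03 to 18.9 FPKM) and *Id2* (16.6 to 18.4 FPKM) overlapped. The shares are descriptions and were not tested.

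**Figure D3:**
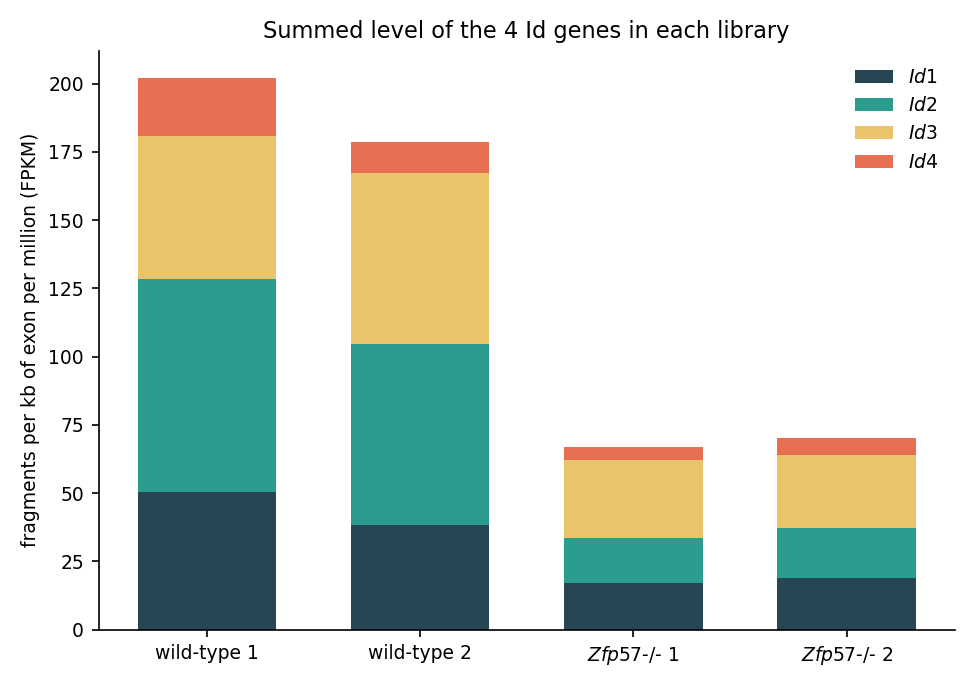
Level of *Id1*, *Id2*, *Id3* and *Id4* in FPKM (y axis, from 0) stacked for each of the 4 libraries. The stacks reach 202 and 178 FPKM in the wild-type and 67.0 and 70.1 FPKM in the mutant libraries, and the *Id2* segment takes a smaller share in the latter.

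RefSeq promoter windows, of 250 bases before and 50 bases after a transcription start, were matched by symbol for 5 of the 10 members. Those of *Id2*, *Id3* and *Id4* are shown because Smad complexes act on Id genes through short GC-rich and GTCTG elements upstream of the start. No window was matched for *Id1*, which also fell. Elements more than 250 bases before the start lie outside the windows and were not searched. They are written 5′ to 3′ on the gene's strand, on GRCm38.p6. Capitals mark matches on either strand to GGCGCC (a GC-rich Smad element), GTCTG (a Smad box, CAGAC on the other strand) and the forms TGCCGC and GGCCGC of the hexamer that ZFP57 binds when methylated (GCGGCA and GCGGCC on the other strand). The windows are chr12:25096043-25096342 (minus strand) for *Id2*, chr4:136143572-136143871 (plus strand) for *Id3* and chr13:48260866-48261165 (plus strand) for *Id4*.
Id2: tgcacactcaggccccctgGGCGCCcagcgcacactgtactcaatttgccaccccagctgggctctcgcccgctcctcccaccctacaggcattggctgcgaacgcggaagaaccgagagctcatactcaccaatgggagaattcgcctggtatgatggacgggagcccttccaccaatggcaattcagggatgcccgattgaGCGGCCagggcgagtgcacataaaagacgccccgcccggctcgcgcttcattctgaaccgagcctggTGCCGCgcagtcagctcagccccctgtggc
Id3: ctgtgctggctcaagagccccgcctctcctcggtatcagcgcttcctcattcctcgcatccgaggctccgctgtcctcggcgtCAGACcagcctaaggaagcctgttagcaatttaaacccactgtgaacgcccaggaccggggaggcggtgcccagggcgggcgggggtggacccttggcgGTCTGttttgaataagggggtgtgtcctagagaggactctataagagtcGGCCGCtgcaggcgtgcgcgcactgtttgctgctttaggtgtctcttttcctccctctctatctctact
Id4: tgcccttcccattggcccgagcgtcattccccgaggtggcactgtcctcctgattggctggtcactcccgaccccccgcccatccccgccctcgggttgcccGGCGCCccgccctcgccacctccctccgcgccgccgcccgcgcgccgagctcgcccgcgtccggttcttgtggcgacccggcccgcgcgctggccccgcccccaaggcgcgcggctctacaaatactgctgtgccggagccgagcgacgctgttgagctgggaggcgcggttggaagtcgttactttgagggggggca

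The *Id2* window held 1 GGCGCC, whose first base is 231 bases before the start, 1 GCGGCC, 47 bases before it, and 1 TGCCGC after it. The *Id3* window held 2 Smad boxes, 167 and 68 bases before the start, and 1 GGCCGC, 19 bases before it. The *Id4* window held 1 GGCGCC, 148 bases before the start. No other match was present. Of all 32851 RefSeq promoter windows, 11.9% held GGCGCC, 49.6% held GTCTG or CAGAC, 11.6% held TGCCGC or GCGGCA and 19.99% held GGCCGC or GCGGCC. The windows of *Id2*, *Id3* and *Id4* were 63.3%, 60.0% and 73.3% G or C, against a median of 52.7% over all windows.

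*Bmp4* changed opposite to the Id genes. This ligand was at 136 and 107 normalized counts in wild-type libraries and at 430.4 and 539.7 in mutant replicates, and every *Zfp57*-/- library lay above both wild-type libraries. The log2 fold change was 2.00 (standard error 0.24, edgeR adjusted p = 0.000235). By length, *Bmp4* stood at 5.75 ± 0.98 FPKM (SD, n = 2) in wild-type, below all Id genes. In mutant cells it stood at 22.9 ± 3.65 FPKM (SD, n = 2), the second level among the members after *Id3*. *Bmp4* (ENSMUSG00000021835.15) lies on chromosome 14 from 46383520 to 46390669, and *Gm15217*, which overlaps its exons on the opposite strand, was counted apart.

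*Bmp7*, a ligand of another BMP subfamily, was at 272 and 318 normalized counts in wild-type libraries and at 212 and 215 in mutant replicates. The genotypes did not overlap, but the log2 fold change of -0.47 (95% interval -0.95 to 0.0099) did not pass the threshold (edgeR adjusted p = 0.133). Without wild-type replicate 1 the log2 fold change was -0.60. *Bmp7* (ENSMUSG00000008999.7) lies on chromosome 2 from 172868012 to 172940321.

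Among the inhibitors, *Smad7* was the member that rose. This inhibitory Smad blocks receptors of both the BMP and the TGF-beta branch. It was at 202 and 172 normalized counts in wild-type libraries and at 438 and 425 in mutant replicates, without overlap (log2 fold change 1.21, standard error 0.21, edgeR adjusted p = 0.00219). *Smad6*, the inhibitory Smad that acts mainly on BMP signals, was at 126 and 103 normalized counts in wild-type libraries and at 89.9 and 107 in mutant replicates. Its genotypes overlapped, and the log2 fold change was -0.22 (95% interval -0.85 to 0.42, edgeR adjusted p = 0.613). *Smad7* (ENSMUSG00000025880.11) lies on chromosome 18 from 75367529 to 75395935 and *Smad6* (ENSMUSG00000036867.7) on chromosome 9 from 63953076 to 64022059.

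The calls of *Bmp4* and *Smad7* depended on the scale. When *Actb* set the scale, the median log2 fold change of all genes moved to -0.68, and 486 genes were called higher and 2994 lower, against 2607 and 2915 with TMM. On that scale *Bmp4* stood at 1.26 (edgeR adjusted p = 0.0888) and *Smad7* at 0.50 (edgeR adjusted p = 0.558). Relative to the median of all genes they lay at 1.94 and 1.18. The 4 Id genes passed on that scale too, with log2 fold changes between -2.77 and -1.69, or between -2.09 and -1.01 relative to that median.

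*Nog* encodes Noggin, a secreted protein that binds BMPs and keeps them from their receptors. It was at 167 and 402 normalized counts in the wild-type cultures, 2.41-fold apart, and at 152 and 217 in the mutant replicates. The log2 fold change of -0.63 (95% interval -1.46 to 0.20) did not pass the threshold (edgeR adjusted p = 0.240). It was 0.15 without wild-type replicate 2 and -1.15 without wild-type replicate 1, so that its sign changed with the wild-type library left out. Wild-type replicate 2 also had the higher summed level in 6 of the 7 marker lists, all but the dorsal midline list, and the part of these cell types in the difference was not tested. *Bambi*, a pseudoreceptor without a kinase domain, was at 259.9 and 179 normalized counts in wild-type libraries and at 176 and 224 in mutant replicates. Its genotypes overlapped (log2 fold change -0.13, 95% interval -0.71 to 0.46, edgeR adjusted p = 0.752). *Nog* (ENSMUSG00000048616.4) lies on chromosome 11 from 89300638 to 89302332 and *Bambi* (ENSMUSG00000024232.2) on chromosome 18 from 3507923 to 3516404.

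A further 65 genes of the pathway were listed by role, also with earlier results of these data known, and 60 of them were tested. In mutant cells 21 were lower, 5 higher and 34 not past the threshold, so that 43.3% were called against 27.6% of all genes. Their median log2 fold change was -0.53. With *Actb* as the scale 20 were called lower and 2 higher, and *Bmp2*, *Bmp8b* and *Eng* were no longer among the latter (edgeR adjusted p = 0.223, 0.176 and 0.0963). The genes not tested, *Bmp10*, *Bmp15*, *Gdf2*, *Chrdl2* and *Dlx5*, had at most 2 counts in any library. Without *Zfp57*-/- replicate 1 fewer of these pathway genes were called, and fewer of all genes tested were called too. For named genes with no library above 3 counts in one of the genotypes, a ratio of the summed counts is given. It is scaled by the summed TMM-scaled library totals and has an exact 95% counting interval.

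**Figure D4:**
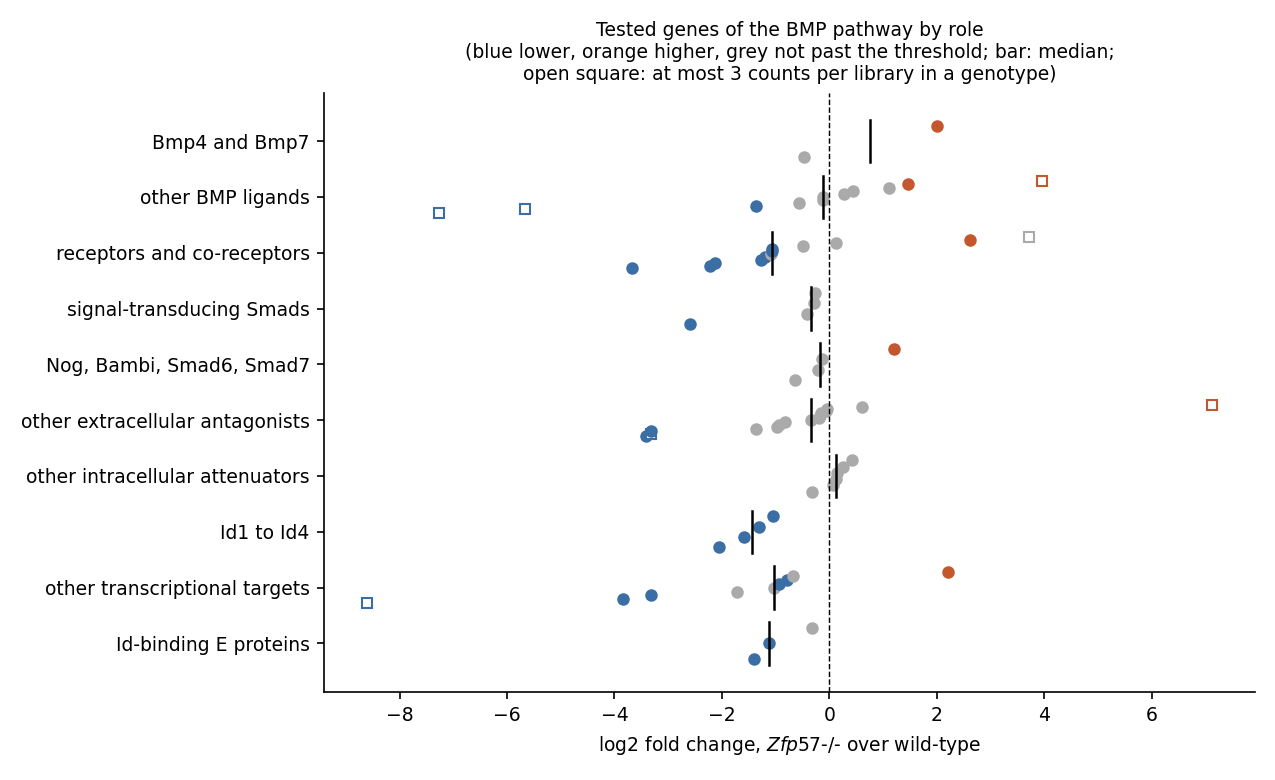
Log2 fold change of *Zfp57*-/- over wild-type cells (x axis) for each tested gene, in rows by role, with the row median as a bar. Receptors, Id genes, other targets and E proteins have medians between -1.45 and -1.03, and the intracellular attenuators lie close to 0.

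Of the other BMP ligands, 3 were lower, 2 higher and 6 not past the threshold, or 45.5% called against 27.6% of all genes. *Gdf7*, a ligand of the dorsal midline, had 204 and 117 counts in wild-type libraries and 0 and 2 in mutant libraries, a ratio of 165 (95% interval 45.4 to 1370.3) in favour of wild-type. *Gdf10* had 63 and 152 counts against 1 and 3, a ratio of 55.3 (95% interval 21.3 to 205). *Bmp6*, a ligand of the *Bmp7* group, had a log2 fold change of -1.36 (edgeR adjusted p = 0.00854). In the other direction, *Bmp2*, the closest relative of *Bmp4*, had 43 and 152 counts in wild-type libraries and 245 and 289 in mutant libraries (log2 fold change 1.47, edgeR adjusted p = 0.0191). *Bmp8b* had 1 and 0 counts against 12 and 8, a ratio of 19.4 (95% interval 3.11 to 805) in favour of mutant cells. *Bmp1*, a protease named for its co-purification with BMPs, had the highest level of those that did not pass (log2 fold change -0.11, edgeR adjusted p = 0.716). The dorsal midline markers moved in the same direction as *Gdf7* and *Gdf10* (226 and 162 against 32.0 and 40.0 CPM), and their part was not tested.

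The receptors and co-receptors were mostly lower, with 7 lower, 1 higher and 4 not past the threshold among 12. The share called was 66.7%, against 27.6% of all genes. *Bmpr1b*, a type I receptor, had 328 and 320 counts in wild-type libraries and 18 and 35 in mutant libraries (log2 fold change -3.68, edgeR adjusted p = 5.05e-05). *Bmpr1a*, the more abundant type I receptor, did not pass (log2 fold change -0.49, edgeR adjusted p = 0.0887). Its level was 46.9 FPKM in wild-type and 33.4 FPKM in mutant cells, against 5.97 and 0.46 FPKM for *Bmpr1b*. *Acvr2a*, a type II receptor, fell by 2.22 and *Rgmb*, a co-receptor, by 2.13 on the log2 scale (edgeR adjusted p = 5.88e-05 and 7.95e-05). *Eng*, a co-receptor of endothelial cells that ESCs also express, was higher, with 15 and 16 counts against 95 and 105 (log2 fold change 2.63, edgeR adjusted p = 0.00109).

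The Smads that carry the signal were measured at closer levels. *Smad4*, the common partner, had a log2 fold change of -0.27 (edgeR adjusted p = 0.333), and *Smad1* and *Smad5* did not pass either. *Smad9* was called lower at 25 and 16 against 5 and 2 counts (log2 fold change -2.59, edgeR adjusted p = 0.0393), and DESeq2 did not call it. None of the 6 intracellular attenuators passed, with 0 called by edgeR, 0 by DESeq2 and 0 at an unadjusted p below 0.05. *Ski*, the most abundant of them, had a log2 fold change of 0.26 (edgeR adjusted p = 0.377).

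Of 15 tested extracellular antagonists, 3 were lower, 1 higher and 11 not past the threshold. The share called was 26.7%, near the 27.6% of all genes tested. *Sost*, which encodes sclerostin, fell by 3.41 on the log2 scale (edgeR adjusted p = 0.00243), and *Sostdc1* had 30 and 8 counts against 2 and 2, a ratio of 9.78 (95% interval 3.52 to 37.7) in favour of wild-type. *Cer1*, an antagonist of Nodal and BMP made by anterior endoderm and also by cultured ESCs, had 1 and 1 counts in wild-type libraries and 148 and 177 in mutant libraries. The ratio was 158 (95% interval 43.3 to 1309) in favour of mutant cells, where the pluripotency, endoderm, mesoderm and neural crest lists also had higher sums. Their part in it was not tested. *Fst*, which encodes follistatin, was the most abundant antagonist, at 75.2 FPKM in wild-type and 71.8 FPKM in mutant cells. It had 1671 and 5060 counts in the wild-type cultures, and its log2 fold change was -0.07 (edgeR adjusted p = 0.902). Like *Nog*, it was higher in wild-type replicate 2.

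Other transcriptional targets moved mostly with the Id genes, with 5 of 9 lower, 1 higher and 3 not past the threshold. The share called was 66.7%, against 27.6% of all genes. *Msx3*, a dorsal neural tube homeobox gene, had 252 and 637 counts in wild-type libraries and 0 and 2 in mutant libraries, a ratio of 458 (95% interval 126 to 3785). Its relative *Msx1* had 311 and 447 counts against 20 and 34 (log2 fold change -3.84, edgeR adjusted p = 1.75e-05), and *Tfap2a* 55 and 75 against 10 and 3. *Tbx3*, a target that is also a factor of naive ESCs, was higher, with 96 and 134 counts against 487 and 611 (log2 fold change 2.21, edgeR adjusted p = 7.78e-05). *Atoh8* had the highest level of those that did not pass (log2 fold change -0.67, edgeR adjusted p = 0.264). Of the E proteins that Id factors bind, *Tcf12* (log2 fold change -1.40, edgeR adjusted p = 0.000498) and *Tcf4* (-1.13, edgeR adjusted p = 0.00397) were lower. *Tcf3* did not pass (-0.33, edgeR adjusted p = 0.286).

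The hybrid genome allowed maternal (JF1) and paternal (B6) RNA to be counted apart for 7 members. *Id1*, *Id2* and *Bmp4* had 0 allelic reads in every library, so their allelic share has no value. In the wild-type cells 1 of the 7 differed between the alleles, against 23.6% of all 10977 genes tested, and in the contrast between genotypes 1 of 7 was called, against 14.5%. Both calls were of *Smad6*. In the mutant cells 1 of the 7 differed between the alleles, *Smad7*, against 21.8% of all genes. The share JF1/(JF1 + B6) of the other 6 members had genotype means between 0.407 and 0.627, and the plot of the maternal share shows them with the median of neighbouring genes.

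**Figure D5:**
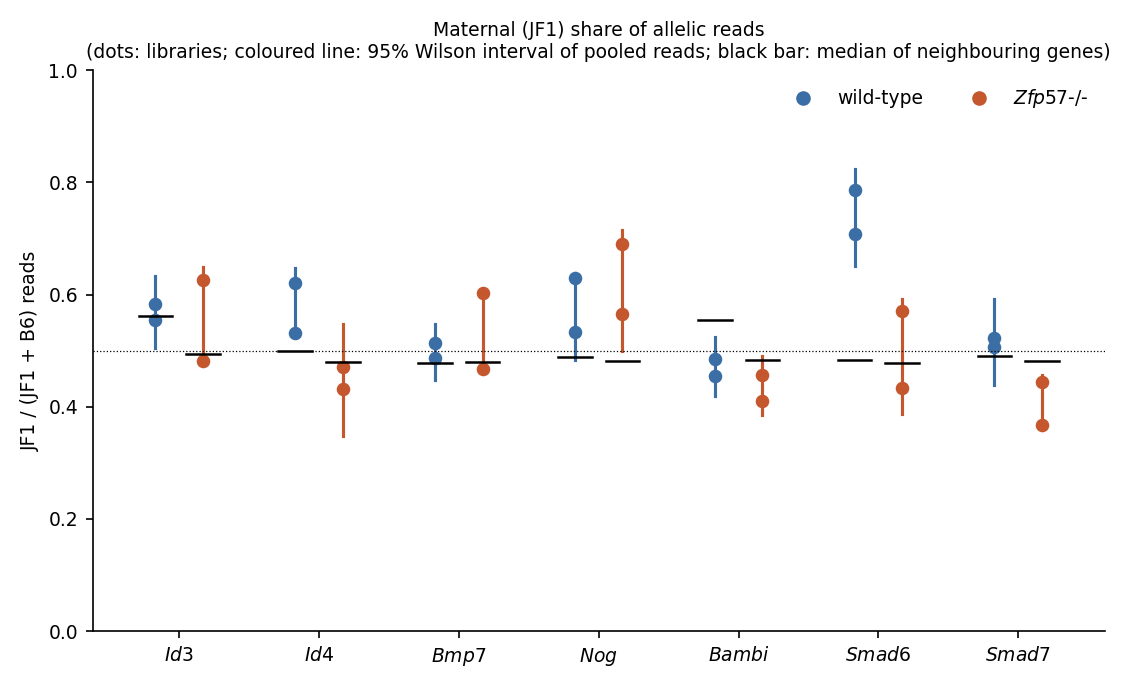
Share of JF1 among allelic reads (y axis, 0 to 1) of 7 members, with dots for the 2 libraries of each genotype, a 95% Wilson interval of the pooled reads that covers counting error only, and a black bar at the median of neighbouring genes. *Smad6* in wild-type cells lies at 0.708 and 0.787. The median of its neighbours there is 0.484, with single neighbours from 0.310 to 1.00. The remaining shares of the members lie between 0.368 and 0.690.

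*Smad6* had JF1 shares of 0.708 and 0.787 in the wild-type replicates, from 48 and 47 allelic reads. In the mutant replicates the shares were 0.571 and 0.434, from 35 and 53 reads. The pooled share was 0.747 (95% Wilson interval 0.652 to 0.824) in wild-type and 0.489 (0.387 to 0.591) in mutant cells. These intervals do not overlap, but they cover counting error only and not the spread between libraries. JF1 exceeded B6 in wild-type cells by 1.56 on the log2 scale (standard error 0.40, edgeR adjusted p = 0.00139). The contrast of *Zfp57*-/- minus wild-type was -1.60 (standard error 0.56, edgeR adjusted p = 0.0398). Normalized JF1 reads were 36.4 in wild-type and 21.2 in mutant cells and B6 reads 12.7 and 22.0, while the total level of *Smad6* was not called different. The contrast was not called by DESeq2 (adjusted p = 0.644), nor with the replicate number as a block (edgeR adjusted p = 0.0515), nor with wild-type replicate 1 (0.126), wild-type replicate 2 (0.435) or *Zfp57*-/- replicate 2 (0.275) left out. The difference in wild-type cells was not called without wild-type replicate 2 (edgeR adjusted p = 0.225) or by DESeq2 (0.144).

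The 20 genes nearest *Smad6* with allelic reads had a median JF1 share of 0.484 in wild-type and 0.479 in mutant cells, and 3 of them had a called contrast. These were *Anp32a* (1.00 in wild-type and 0.572 in mutant cells), *Coro2b* (0.815 and 0.416) and *Tipin* (0.835 and 0.465), named after their values were seen. The nearest of the 20 genes on the one side, *Smad3*, was at 0.450 and 0.502. On the other side the nearest, *Zwilch*, was at 0.439 and 0.449. Neighbours with shares far from the middle were also found around members without a value of their own. Few genes near *Bmp4* had enough allelic reads, so that the 20 taken on its chromosome span from 37120092 to 51893039. Of these, 8 had a called contrast, with a median share over the 20 of 0.651 in wild-type and 0.494 in mutant cells, and the nearest of the 8 lies 4.37 Mb from *Bmp4*. Of the 20 taken around *Id2*, from 14146830 to 32061296, 10 had one, with medians of 0.553 and 0.483, and the nearest of them lies 0.38 Mb away. Around *Id1* there were 0 of 20, with medians of 0.477 and 0.490. Members with a value of their own had such neighbours too. Around *Id3*, 6 of 20 had a called contrast (medians 0.562 and 0.494), the nearest 0.17 Mb away. Around *Bambi*, 4 of 11 had one (medians 0.555 and 0.484). There was 1 of 20 around each of *Id4* and *Bmp7*, and 0 of 20 around *Smad7* and *Nog*.

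Reads of both alleles of *Id3* and *Id4* were fewer in the mutant libraries. *Id3* had JF1 shares of 0.584 and 0.556 in wild-type and 0.481 and 0.627 in mutant replicates, and the contrast was -0.04 (95% interval -0.85 to 0.77, edgeR adjusted p = 0.987). Its JF1 reads changed by -0.89 and its B6 reads by -0.85 on the log2 scale between the genotype means, which is a description. *Id4* had JF1 shares of 0.621 and 0.532 in wild-type and 0.471 and 0.431 in mutant replicates. The contrast of -0.79 (95% interval -1.64 to 0.06) did not pass (edgeR adjusted p = 0.281), and the JF1 and B6 reads changed by -1.95 and -1.10 on the log2 scale. *Smad7*, at shares of 0.523 and 0.507 in wild-type and 0.445 and 0.368 in mutant replicates, had more reads of both alleles in the mutant, by 0.83 for JF1 and 1.47 for B6 on the log2 scale (contrast -0.63, 95% interval -1.30 to 0.03, edgeR adjusted p = 0.261). Within mutant cells JF1 was below B6 by a log2 difference of -0.54 (standard error 0.20, edgeR adjusted p = 0.0387). That call was lost by DESeq2 (adjusted p = 0.576), with the replicate block (edgeR adjusted p = 0.366), and without wild-type replicate 1 (0.0504) or *Zfp57*-/- replicate 2 (0.431).

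*Bmp7*, *Nog* and *Bambi* did not pass in the contrast either (edgeR adjusted p = 0.744, 0.846 and 0.773). The *Bmp7* shares were 0.513 and 0.487 in wild-type and 0.603 and 0.467 in mutant replicates. Those of *Nog* were 0.630 and 0.533 against 0.690 and 0.565, from 29 to 107 reads per library. Those of *Bambi* were 0.486 and 0.455 against 0.411 and 0.456.

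Among the other pathway genes 47 were tested for the contrast and 6 were called, or 12.8%, against 14.5% of all genes. They are named after their values were seen. *Acvr1* and *Acvr2a*, both receptors on chromosome 2 that fell, had JF1 shares between 0.50 and 0.669 in wild-type libraries and of 1.00 in both mutant libraries. Of the 20 neighbours of each, 13 around *Acvr1* and 11 around *Acvr2a* had a called contrast. The neighbours had medians of 0.481 and 0.490 in wild-type and of 1.00 and 0.937 in mutant cells, where the lowest shares among them were 0.448 and 0.433. *Acvr1* lies from 58388644 to 58567157 and *Acvr2a* from 48814109 to 48903269, while *Id1* and *Bmp7* lie further along the same chromosome, where the neighbouring shares had medians between 0.477 and 0.490. *Bmpr2*, on chromosome 1, had shares of 0.493 and 0.459 in wild-type and 0.701 and 0.668 in mutant replicates. Its 20 neighbours had medians of 0.513 and 0.651, and 12 of them had a called contrast. The other called genes were *Rgmb*, *Neo1* and *Tfap2a*, each with a lower JF1 share in mutant cells. *Rgmb* had shares of 0.712 and 0.750 in wild-type and 0.538 and 0.589 in mutant libraries. Of the 20 neighbours of each, 6 around *Rgmb*, 4 around *Neo1* and 4 around *Tfap2a* had a called contrast. The contrast of *Tfap2a* rested on 19 and 22 allelic reads in wild-type and on 7 and 1 in mutant libraries. *Rgmb* had 158 and 207 and *Neo1* 480 and 457 reads in the mutant libraries.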

How the data were processed

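Day 12 RNA of 2 wild-type and 2 *Zfp57*-/- JB1 cultures was sequenced in stranded read pairs after removal of ribosomal RNA. The authors trimmed the reads (Trimmomatic 0.36), aligned them to GRCm38 (STAR 2.5.4a), and deposited raw counts of fragments per GENCODE gene, assigned by strand (featureCounts, Subread 1.6.0, per the submitters' notes and the file headers). The authors also split the reads at strain SNPs and deposited the same counts for each allele. Reads without a SNP stay out of the allele table.

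Here, the bulk comparison kept genes whose counts summed to more than 8 and used edgeR 4.0.16 (R 4.3.3, robust quasi-likelihood test, TMM, no pair term). The allele comparison took 10977 autosomal genes that reached 10 normalized allelic counts in each wild-type replicate, and its edgeR model had library terms and, for each genotype, an allele term. Alternatives were DESeq2 1.42.0, other scalings and filters, a replicate block and leaving out each library. The GGCCGC form of the ZFP57 hexamer was added after the data were seen. FPKM used the TMM-scaled totals and the merged exon length. Neighbours are up to 10 genes on each side whose allelic reads reached 10 in all libraries. RefSeq named *Hjv*, which the table lists as *Hfe2*. The tests were run on simulated counts in which only genes with a higher mean than the allelic reads of *Smad6* were changed. Changes at lower counts were not checked.

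The members and gene lists were chosen with earlier results of these data known. From each list of other pathway genes, the most abundant gene not past the threshold and, for each direction, up to 3 genes by adjusted p were named, except that 1 of them is not reported here. The replicates are biological duplicates of 1 line per genotype, so that p-values measure the spread between these cultures.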

Additional observations from a re-analysis of the deposited data

Results flagged for a closer look

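The genotype-by-allele contrast of *Smad6* was flagged because edgeR's test of that contrast passed the threshold. It was 1 call among 7 members tested, near the 14.5% called over all genes tested. The JF1 over B6 log2 ratio of mutant minus that of wild-type cells was -1.60 (standard error 0.56, edgeR adjusted p = 0.0398), with shares of 0.708 and 0.787 against 0.571 and 0.434. The call was lost by DESeq2 (adjusted p = 0.644), with the replicate block (edgeR adjusted p = 0.0515), and without wild-type replicate 1 (0.126), wild-type replicate 2 (0.435) or *Zfp57*-/- replicate 2 (0.275). The wild-type shares rested on 95 allelic reads and the mutant shares on 88. The genotype groups had 2 libraries each, too few for a test of outlying libraries.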

How the results depend on the processing

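The number of members called between genotypes was 6 with upper-quartile scaling, DESeq2's size factors, DESeq2's test, without a filter, with a filter of 1 CPM in 2 libraries and the replicate block, and 4 with *Actb* as the scale. It ranged from 5 to 8 with a library left out. For the other pathway genes the number was between 22 and 30 in the same settings against 26, and from 16 to 38 with a library left out. No paired design is given, and same-numbered libraries deviated with a correlation of 0.144 over 11880 genes. With the replicate block 6 members and 30 other pathway genes were called between genotypes, 6984 genes in all against 5522.

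The members called in the contrast of genotype and allele were 0 by DESeq2 and 0 with the replicate block (*Smad6* adjusted p = 0.0515), of 7 tested, with 0 and 1 at an unadjusted p below 0.05. They ranged from 0 to 1 with a library left out. In the wild-type allele test DESeq2 called 0, with 1 at an unadjusted p below 0.05, edgeR with the block called 1, and leaving out a library gave 0 to 1. Signs that turned were all of values not past the threshold. With a library left out, the log2 fold change ranged from -1.15 to 0.15 for *Nog* (positive without wild-type replicate 2) and from -0.38 to 0.14 for *Bambi* (positive, at 0.14 and 0.041, without wild-type replicate 1 or *Zfp57*-/- replicate 1). The contrast ranged from -0.52 to 0.34 for *Id3* (0.037 and 0.34 without wild-type replicate 1 or *Zfp57*-/- replicate 1), from -0.18 to 0.61 for *Bmp7* (-0.18 without *Zfp57*-/- replicate 1) and from -0.072 to 0.77 for *Nog* (-0.072 without wild-type replicate 2). The wild-type allele difference of *Bmp7* turned to 0.23 with the block and ranged from -0.076 to 0.075 with a library left out. In the mutant allele test, whose alternatives were added after the data were seen, DESeq2 called 0 members and edgeR with the block 0, with 0 and 1 at an unadjusted p below 0.05, and leaving out a library gave 0 to 1. There the difference ranged from -0.11 (without *Zfp57*-/- replicate 2) to 0.74 for *Id3*, from -0.19 (without *Zfp57*-/- replicate 1) to 0.60 for *Bmp7* and from -0.38 to 0.41 (without *Zfp57*-/- replicate 2) for *Smad6*, which was 0.037 with the block. The cause was not tested. Leaving out a library leaves 1 in a genotype, which is then assumed to vary like the others. Allelic reads, at most 228 per member and library, limit the shares.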
